A study of Papio anubis with 18 samples.

Results

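In baboon pluripotent cells, 69 of 29475 counted genes were clearly present in 1 library of a cell line and close to absent in another library of the same line. A gene was a member if at least 1 line had a library at 5 CPM or more and another under 0.3 CPM. CPM is the usual abundance unit of a count scaled to the total count of its own library. The rule left out 3 further identifiers by name. The members were therefore chosen by these very values, and their levels within the choosing line are given as a description, without a test.

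The lines were the embryonic stem cell (ESC) lines B4 and B15, which derive from embryos, and the induced pluripotent stem cell (iPSC) lines iPSC_160-2 and M14939#3, which derive from reprogrammed somatic cells. All came from the olive baboon, Papio anubis, and grew on feeder cells in a medium made for human pluripotent cells. Each line had 3 RNA-seq libraries, 12 in total, and each is a single established line, so a cell type is represented by 2 lines. The sample descriptions give every library a number after the letter p, which they do not define. It was 16, 18 and 25 for B4, 21, 28 and 43 for B15, 25, 65 and 84 for iPSC_160-2, and 16, 17 and 40 for M14939#3, and libraries are called p16, p18 and so on here. The labels do not say whether libraries of a line came from separate cultures, so the p-values measure only the spread between these libraries, which may be technical.

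Pluripotent cells divide without limit in culture, and a culture is renewed from the cells that survive each transfer. Background knowledge from other species holds that single genes can be lost or gained in such cultures through a change in the DNA, through stable silencing or release of a promoter, or through a shift in the share of cells that have begun to differentiate. Imprinted genes and genes of the X chromosome are textbook examples of unstable loci in pluripotent lines. A count table does not separate these routes. The reference table used here pairs 0 of the 29475 Ensembl identifiers with a symbol, so members are given by identifier, their functions are not named, and the labelled cell type could not be checked against its marker genes. For the same reason RNA of feeder cells, or of cells that had begun to differentiate, could not be assessed, and its part in the results was not tested.

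Total counts ranged from 12049925 in the p18 library of B4 to 62634176 in the p21 library of B15, so that 0.3 CPM stood for 3.61 to 18.8 counts. The p16 and p18 libraries of B4, p21 and p28 of B15, p25 of iPSC_160-2 and p17 of M14939#3 were run on 2 lanes and the others on 1 lane. This library set moves with the p number in B4, B15 and iPSC_160-2, where the last library was always run on 1 lane, but not in M14939#3, where both p16 and p40 were. The sample descriptions also hold an S index without explanation. It is lower in every 2-lane library than in every 1-lane library, with a gap between these blocks. Whether the library sets differ in more than the number of lanes was not tested. TMM factors, which scale library totals, were 0.81 for p28 of B15 and 0.921 to 1.07 for the other libraries.

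The 69 members made 79 combinations of a gene and a line, because 9 members met the rule in more than 1 line. B4 chose 25 members, B15 23, iPSC_160-2 16 and M14939#3 15. These were 0.249%, 0.228%, 0.161% and 0.148% of the roughly equal numbers of genes with at least 5 CPM in a library of the line (10035, 10093, 9923 and 10135). A lower level at a higher p number was the more frequent direction. In bulk RNA, fewer cells that express a gene and less RNA per cell cannot be told apart. A combination is called downward where the lowest library had a higher p number than the highest library, and upward in the opposite case. Of the 79 combinations, 59 were downward and 20 upward. Where the middle library was the highest, as in 20 combinations, the direction rests only on which end library was lower. This can be a small difference: ENSPANG00000004221 was downward in B4 with 4 counts at both p16 and p25. Downward combinations were 16 of 25 in B4, 20 of 23 in B15, 11 of 16 in iPSC_160-2 and 12 of 15 in M14939#3. Among all genes with at least 5 CPM in a library of the line, the highest library had a lower p number than the lowest in 45.5%, 51.7%, 56.0% and 51.1%. The split also went with the lanes: the highest library was run on 2 lanes and the lowest on 1 lane in 51 of the 79 combinations, the reverse held in 15, and both had the same number of lanes in 13. The matching share by lanes over all genes was not taken, and the part of the lanes in the direction was not tested.

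The rule itself fixes a large ratio. The ratio of the highest to the lowest library had a median of 58.7 over the 79 combinations and ranged from 17.2 to 709, where a library with 0 counts entered at the level of 3 counts. Only 6 combinations had 0 counts in the lowest library. In 44 combinations the 3 libraries followed the p number downward in order and in 2 upward, while the middle library was the highest in 20 and the lowest in 13. The matching shares over all genes were not taken. Near the thresholds, 18 combinations had a highest library of 5 to 6 CPM and 35 a lowest library of 0.2 to 0.3 CPM. Just outside lay 36 combinations with a highest library of 4 to 5 CPM and 34 with a lowest library of 0.3 to 0.4 CPM.

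**Figure D1:**
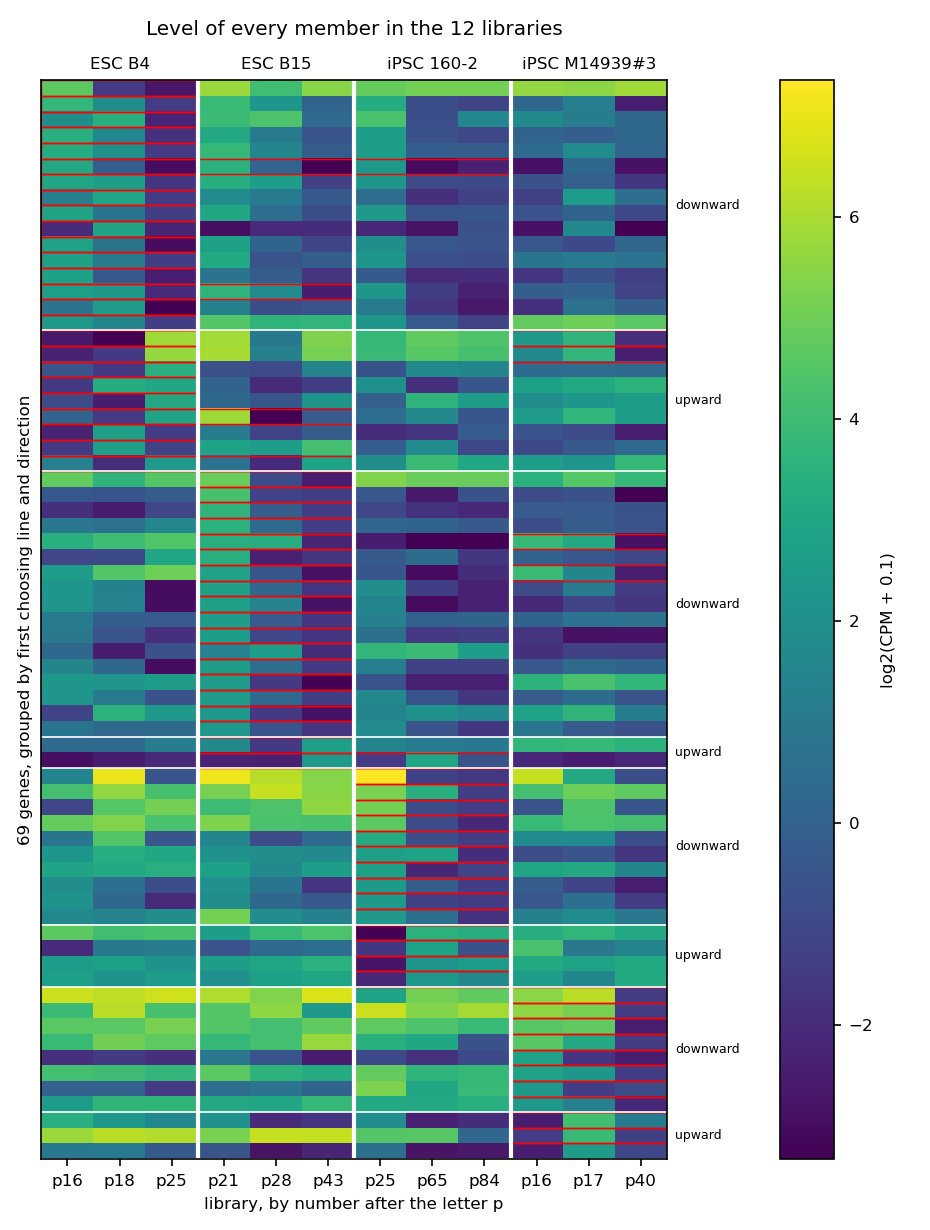
Level of the 69 members (rows) in the 12 libraries (columns, by the number after p), as log2(CPM + 0.1). Red boxes mark the line or lines in which a gene met the rule, and rows are grouped by the first choosing line and the direction there. Downward blocks are the larger ones in all 4 lines (59 of 79 combinations).

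Among the members of a line, the odd library of the 3 was often the same one. The matching share over all genes was not taken, so whether this is a trait of the library at large was not tested. By distance on the log2(CPM + 0.1) scale, p25 stood alone for 17 of the 25 members chosen in B4, p21 for 14 of 23 in B15, p25 for 11 of 16 in iPSC_160-2 and p40 for 10 of 15 in M14939#3. In B15 the lone library was the high one in 15 of 23 combinations. In M14939#3 it was the low one in 11 of 15. The single library that differed also differed in lane number from the other 2 in B4 and iPSC_160-2, and their parts cannot be told apart there. Within libraries run on the same number of lanes, 21 members met the rule, of which 17 were downward and 4 upward. These were 1 downward and 4 upward in B4 between p16 and p18, 4 downward in B15 between p21 and p28, 2 downward in iPSC_160-2 between p65 and p84, and 10 downward in M14939#3 between p16 and p40.

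Both lanes of a library gave the same picture. For the 56 combinations whose highest library was run on 2 lanes, the lanes differed at most 1.39-fold and by a median of 1.08-fold, and the lowest single lane still had 4.47 CPM. In the 20 combinations whose lowest library was run on 2 lanes, no lane exceeded 0.493 CPM. Lanes are repeat runs of 1 library and say nothing about separate cultures.

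In B4, the strongest upward difference was shared by a pair of genes. ENSPANG00000034097 had 0.0704 CPM at p16, 0 counts at p18 and 56.1 CPM at p25. A count of 0 at p18 allows up to 0.249 CPM, so p25 was at least 225-fold higher. ENSPANG00000017151 had 0.106, 0.249 and 51.2 CPM in the same libraries, a ratio of 484 between p25 and p16 (95% exact counting interval 166 to 2351, for counting error only). The p16 and p18 libraries were thus near silent and p25 was high, and p25 was the only 1-lane library of B4. The levels of these genes followed each other across the series, with a Pearson correlation of 0.984 on log2(CPM + 0.1) over the 12 libraries, which share lines and lane sets.

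The same pair took the opposite course in M14939#3. There ENSPANG00000034097 had 5.22 CPM at p16, 12.5 CPM at p17 and 0.176 CPM at p40, and ENSPANG00000017151 had 3.22, 13.1 and 0.0882 CPM. In B15 ENSPANG00000034097 was at 57.7, 1.89 and 39.4 CPM for p21, p28 and p43, so that the middle library was the low one. In iPSC_160-2 it stayed between 13.6 and 27.1 CPM. The pair was therefore low in 2 B4 libraries and 1 M14939#3 library, reduced in 1 B15 library and well above 5 CPM in every iPSC_160-2 library. Whether these identifiers are near-identical copies or overlapping genes that share reads could not be examined, so they may not be separate events.

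Among the downward members of B4, ENSPANG00000036121 had 25.5 CPM at p16, 0.249 CPM at p18 and 0.0586 CPM at p25. The p16 library was 435-fold higher than p25 (95% exact counting interval 120 to 3600). The step lay between p16 and p18, which are both 2-lane libraries. All 9 libraries of the other lines had 16.8 to 56.9 CPM, so p18 and p25 of B4 were the only ones of the 12 without this transcript at a comparable level. ENSPANG00000011237 was lower in steps, with 13.2 CPM at p16, 3.65 CPM at p18 and 0.264 CPM at p25. It belongs to a group that moved alike in 3 lines, described further on.

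In B15 the members were mostly high in p21 alone. ENSPANG00000035939 had 57.1 CPM at p21 (3579 counts), 0 counts at p28 and 0.747 CPM at p43, so p21 was at least 393-fold above p28. In the 9 other libraries it ranged from 0.249 to 13.1 CPM. It was also a member in B4, there with the opposite direction, at 0.986 CPM for p16, 0.249 CPM for p18 and 7.36 CPM for p25. The high B15 library and the high B4 library thus lay at opposite ends of their p numbers.

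ENSPANG00000006960 had 30.4 CPM at p21, 0.437 CPM at p28 and 0.083 CPM at p43 of B15, a 366-fold ratio between the ends (95% exact counting interval 101 to 3023). Elsewhere it had 11.2 to 39.8 CPM in all 9 libraries. Like ENSPANG00000036121 in B4, it was close to absent in 2 libraries of a single line and expressed in the other 10. Only 3 of the 23 members in B15 were upward, and p28 was their lowest library in each case. ENSPANG00000010305 had 1.48, 0.146 and 7.30 CPM at p21, p28 and p43, and ENSPANG00000015734 had 3.16, 0.243 and 6.39 CPM. The low values at p28 rest on 3 and 5 counts.

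A pair of B15 members was low everywhere except p21 of that line. ENSPANG00000018869 had 18.9 CPM there and at most 0.791 CPM in the 9 libraries of other lines, and ENSPANG00000026109 had 12.1 CPM there and at most 0.739 CPM in those 9. No other combination had all 9 libraries of the other lines under 1 CPM. They were named after their values were seen. In 16 of the 79 combinations, in contrast, all 9 libraries of the other lines had at least 1 CPM, and in 61 the other lines were mixed. In those 16, levels under 1 CPM were found in the choosing line only, for some genes in more than 1 of its libraries. The matching share over all genes was not taken.

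In iPSC_160-2, a gene without counts at the lowest p number was expressed in the libraries of higher p number. ENSPANG00000005820 had 0 of 38783715 counts at p25, 11.1 CPM at p65 and 9.80 CPM at p84. The p65 library was at least 144-fold above p25. All 9 libraries of the other lines had 6.10 to 25.5 CPM, so p25 of iPSC_160-2 was the only library without it. ENSPANG00000018534, its closest partner by correlation (Pearson r 0.931), and ENSPANG00000002798 had the same course, with 0.0516 and 0.129 CPM at p25. They had 4.44 and 5.07 CPM at p65, 5.89 and 3.39 CPM at p84, and at least 4.42 and 2.90 CPM in all other lines. Thus 3 of the 5 upward members of iPSC_160-2 were near absent at p25 of that line and in no other library. This p25 library is also the only 2-lane library of the line. ENSPANG00000022684 was of another kind, with 0.258, 7.76 and 0.592 CPM at p25, p65 and p84. It was also an upward member in B15, where it had 5.23 CPM at p43, and it was at most 0.147 CPM in the 6 libraries of B4 and M14939#3.

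The largest ratio of all belonged to ENSPANG00000025667, which had 163 CPM at p25 of iPSC_160-2 and 0.315 and 0.23 CPM at p65 and p84. The ratio between the ends was 709 (95% exact counting interval 344 to 1763). Its level also differed strongly within other lines, at 2.68, 133 and 0.586 CPM for p16, p18 and p25 of B4 and at 83.9, 8.48 and 0.485 CPM for p16, p17 and p40 of M14939#3. In B15 it was 136, 74.7 and 42.1 CPM. The last library was the lowest in each line, while B4 had its peak in the middle. ENSPANG00000031348 had 37.2, 10.6 and 0.296 CPM at p25, p65 and p84 of iPSC_160-2, against 18.1 to 85.04 CPM in the other lines. Its value at p84 lies just inside the threshold.

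In M14939#3, p40 was the lowest library for 11 of 15 members, and the named downward members were genes that every other library expressed. ENSPANG00000008547 had 45.6 CPM at p16, 76.03 CPM at p17 and 0.264 CPM at p40, a 287-fold ratio between p17 and p40 (95% exact counting interval 132 to 784). The 9 libraries of the other lines had 7.22 to 108 CPM. ENSPANG00000009470 had 46.8, 35.5 and 0.264 CPM at p16, p17 and p40, and 5.39 to 89.4 CPM elsewhere. ENSPANG00000019744, the closest partner of ENSPANG00000008547 (Pearson r 0.899), had 24.1, 26.6 and 0.0882 CPM, and 14.4 to 35.3 CPM elsewhere. The p16 library was run on 1 lane like p40. Of the 12 downward members in M14939#3, 5 had at least 1 CPM in all 9 libraries of the other lines, against 1 of 16 in B4, 1 of 20 in B15 and 4 of 11 in iPSC_160-2. The matching shares over all genes were not taken.

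All 3 upward members of M14939#3 were highest at p17, which is also the only 2-lane library of that line. For ENSPANG00000019091 the odd library on the log2(CPM + 0.1) scale was p16, the low one. ENSPANG00000019091 had 0.0869, 17.5 and 1.94 CPM at p16, p17 and p40. ENSPANG00000008465 had 0.261, 14.5 and 0.309 CPM. Since p40 was close to p16 for the latter, its upward direction rests on the order of p16 and p17. Its level was 36.8 to 85.9 CPM across B4 and B15, 22.3 and 23.5 CPM at p25 and p65 of iPSC_160-2, and 1.05 CPM at p84.

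**Figure D2:**
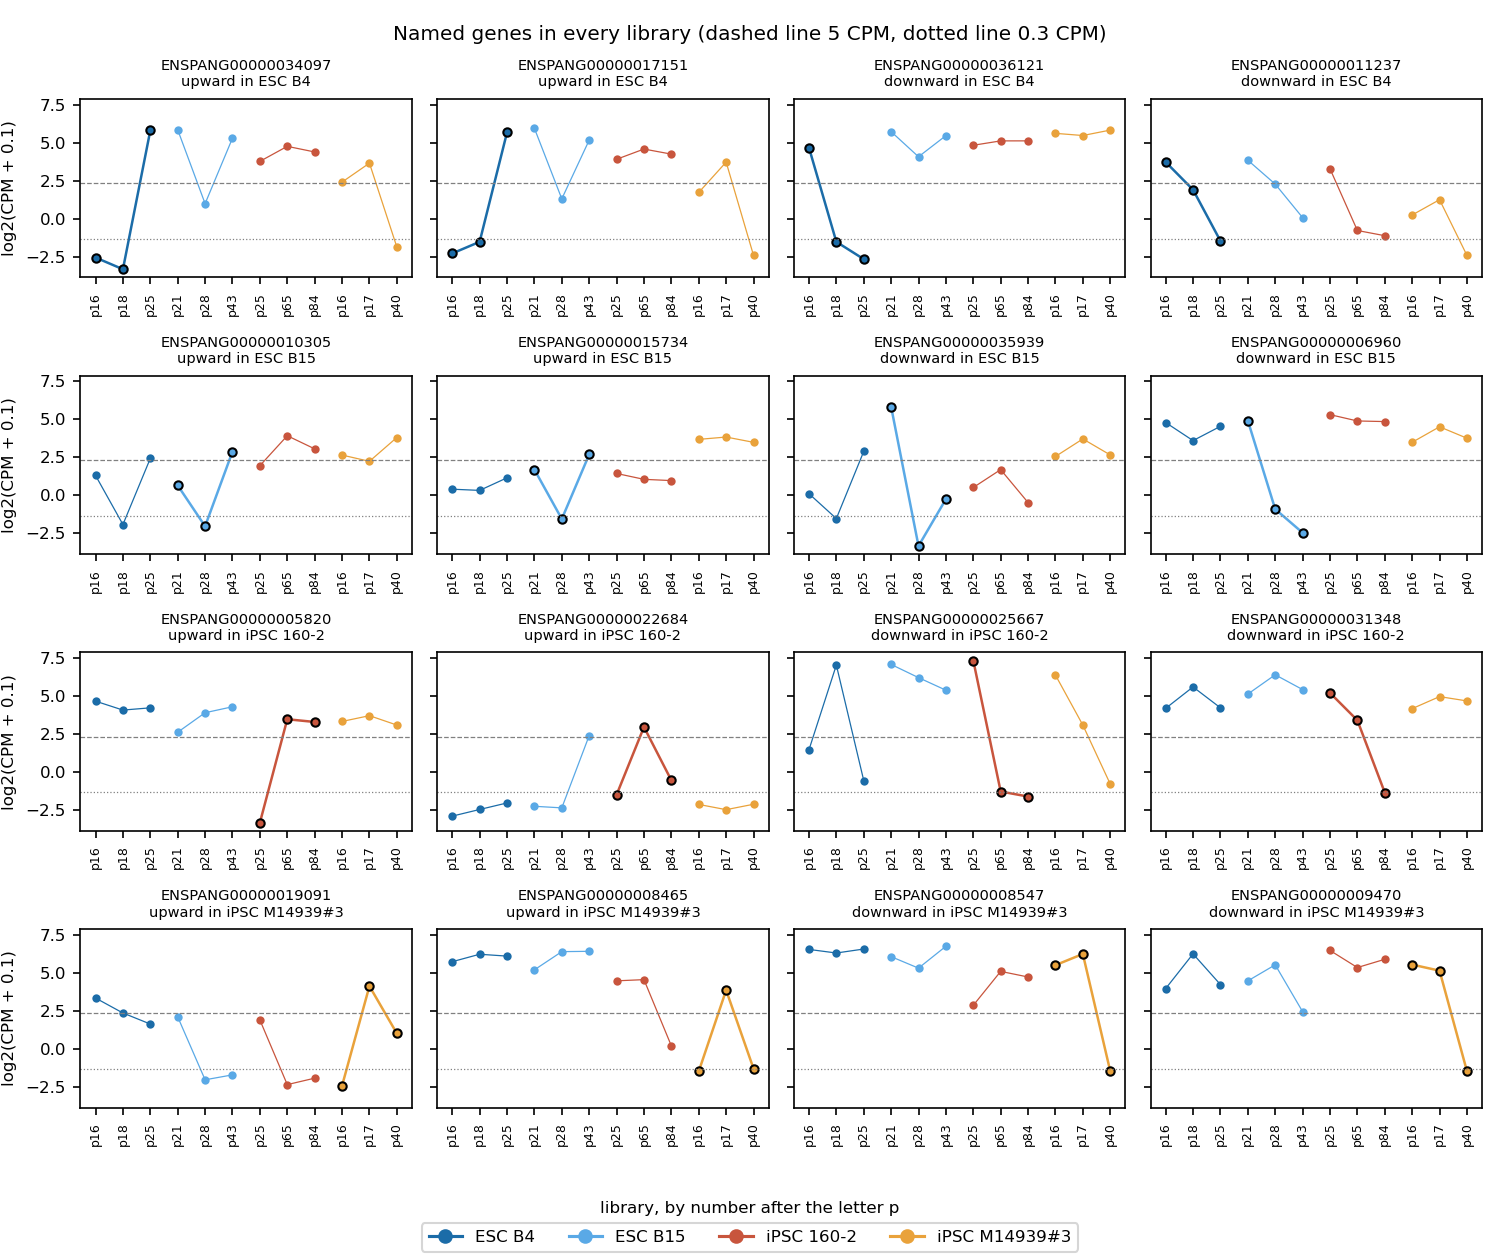
The first 2 upward and 2 downward members by highest CPM in each line (rows), as log2(CPM + 0.1) in all 12 libraries, with outlined points for the choosing line. Genes such as ENSPANG00000036121 (B4), ENSPANG00000006960 (B15), ENSPANG00000005820 (iPSC_160-2) and ENSPANG00000008547 (M14939#3) stay above 5 CPM in the 9 libraries of the other lines, while ENSPANG00000025667 varies in several lines.

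Members chosen in several lines did not all keep their direction. As 59 of all 79 combinations were downward, a shared direction is frequent by itself. Of the 9, 4 were downward and 2 upward in each line that chose them, and 3 had both directions, namely the pair ENSPANG00000034097 and ENSPANG00000017151 and the gene ENSPANG00000035939. A pair of the downward ones met the rule in an ESC and an iPSC line, while every B4 library expressed it. ENSPANG00000016828 had 6.99, 0.631 and 0.0415 CPM at p21, p28 and p43 of B15, and 15.5, 2.90 and 0.0882 CPM at p16, p17 and p40 of M14939#3. ENSPANG00000034200 had 10.5, 9.94 and 0.124 CPM in B15 and 14.0, 8.57 and 0.0441 CPM in M14939#3. In B4 the genes had 5.71 to 32.0 CPM and 10.7 to 21.7 CPM, highest at p25 in both cases, and in iPSC_160-2 no library exceeded 0.619 CPM for either. They were thus on in B4, low throughout iPSC_160-2 and downward within B15 and M14939#3. They are each other's closest partner in the list.

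The upward ones were ENSPANG00000010305, which in B4 had 2.40, 0.166 and 5.33 CPM, and ENSPANG00000022684. ENSPANG00000032386 was downward in both ESC lines, with 6.38, 5.15 and 0.147 CPM at p16, p18 and p25 of B4 and 12.4, 3.49 and 0.083 CPM in B15. The only member of 3 lines was ENSPANG00000022415. It had 8.70, 0.83 and 0.0293 CPM at p16, p18 and p25 of B4. In B15 it had 11.3 CPM at p21, 1.02 CPM at p28 and 0 counts at p43, which allows up to 0.124 CPM. In iPSC_160-2 it had 5.11 CPM at p25, 0.0243 CPM at p65 and 0.0986 CPM at p84. M14939#3 had 0.0435, 1.10 and 0.0441 CPM. The library of lowest p number was thus the highest in 3 lines, and in M14939#3, where all levels were low, the 2-lane library was.

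ENSPANG00000022415 was part of a larger group, defined after the values were seen. In 19 of the 69 members, the library of lowest p number was at least 4-fold above that of highest p number in B4, in B15 and in iPSC_160-2 alike. Of these, 12 were chosen in B4, 7 in B15, 3 in iPSC_160-2 and 0 in M14939#3. Their median level was 6.38, 2.07 and 0.147 CPM at p16, p18 and p25 of B4, and 6.75, 1.36 and 0.332 CPM at p21, p28 and p43 of B15. In iPSC_160-2 the medians were 4.85, 0.437 and 0.296 CPM at p25, p65 and p84. In M14939#3 they were 0.652, 1.10 and 0.353 CPM at p16, p17 and p40, and 17 of the 19 stayed under 2.5 CPM in all 3 libraries of that line. The median Pearson correlation between these genes was 0.857 over the 12 libraries, against 0.183 between all members, where the choice of the group by this pattern raises the former.

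The pattern is not confined to members. Of 10991 genes with at least 5 CPM in a library, 126 had it, the 19 members among them. Lane number and p number cannot be told apart for the last step in B4 and in B15 or the first in iPSC_160-2.

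**Figure D3:**
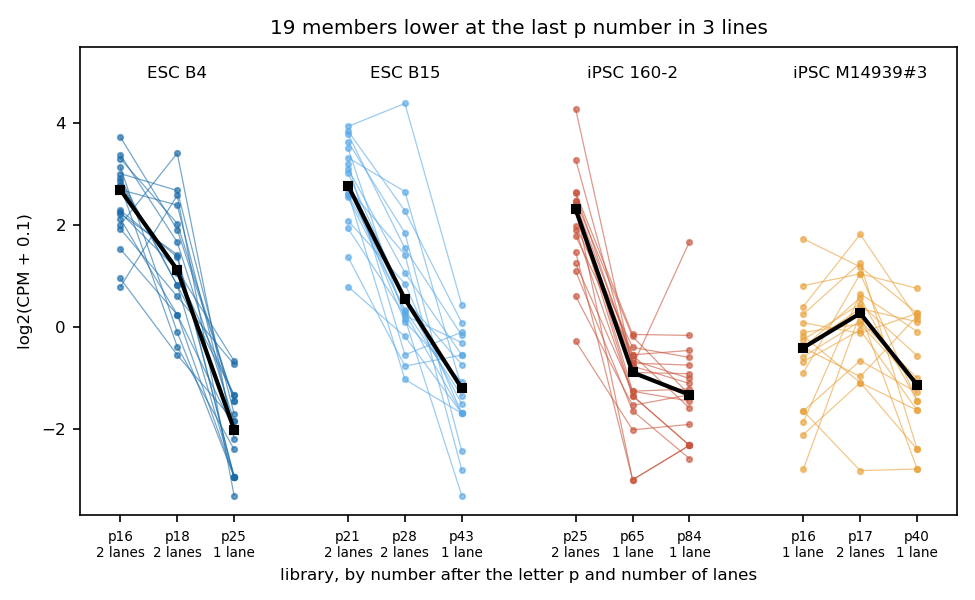
The 19 members (thin lines) whose lowest p number was at least 4-fold above the highest in B4, B15 and iPSC_160-2, with their median (black), as log2(CPM + 0.1) by library and number of lanes. Medians go from 6.38 to 0.147 CPM in B4, while M14939#3 stays at 0.353 to 1.10 CPM.

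The level of a member was tested in the lines that had not brought it into the list. The 9 members of several lines were left out, so the tested values entered the choice in so far as they had not met the rule in those lines. For each line, a model was fitted to the 9 libraries of the other 3 lines, with the line and log2 of the p number as terms, and read for the members chosen in that line only (60 members, all of which passed the filter on low counts). The slope is the log2 change per doubling of the p number. Of the 47 downward members, 40 had a negative slope in the other lines, where 49.3% to 50.6% of all genes did. The members are not independent, since 17 of the 60 belong to the group of 19 that moved alike. That group was picked for lower levels at the highest p number in B4, B15 and iPSC_160-2, so the count of 40 is a description. Of the 13 upward members, 6 had a positive slope. The median slope was -0.97 for downward and -0.12 for upward members, while the median over all genes lay between -0.01 and 0.01 in the 4 fits. By choosing line, the downward medians were -1.55 (B4), -0.62 (B15), -0.89 (iPSC_160-2) and -0.49 (M14939#3).

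Few of these slopes passed the test on their own. After Benjamini-Hochberg adjustment, the quasi-likelihood test of edgeR called 1 of 19 members chosen in B4, against 0.546% of all genes (0.534% with a negative slope). It called 2 of 11 chosen in M14939#3, against 2.18% (1.92% with a negative slope). None of 16 was called for B15 (0.00569% of all genes) and none of 14 for iPSC_160-2 (0%). At an unadjusted p under 0.05 the counts were 14 of 19 (12.6% of all genes), 5 of 16 (14.7%), 2 of 14 (7.68%) and 5 of 11 (15.5%) for B4, B15, iPSC_160-2 and M14939#3. DESeq2 called 10 (5.17%), 4 (6.29%), 2 (1.17%) and 5 (8.96%), of which 18 of 21 were negative. With the library set in place of the p number, edgeR called 5 (2.55%), 4 (6.22%), 0 (1.86%) and 2 (5.36%), all lower in 1-lane libraries. The p number and the library set overlap, and which of them a slope follows was not tested further.

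ENSPANG00000011237, downward in B4, had a slope of -3.05 in the other 3 lines (SE 0.31, adjusted p = 0.00158, edgeR). It had 14.3, 4.75 and 0.954 CPM at p21, p28 and p43 of B15 and 9.67, 0.485 and 0.362 CPM at p25, p65 and p84 of iPSC_160-2. In M14939#3 it was 1.09, 2.28 and 0.0882 CPM. The highest p number thus had the lowest level in each of these lines. The call was lost without p25 of iPSC_160-2 and with the replicate number as a block (adjusted p from 4.37e-18, by DESeq2, to 0.79, by edgeR, over 12 alternatives). Replicate numbers follow the order of the p number in every line, so that block leaves little of a slope to test. With it, slope calls over all genes went from 94 to 0 in the fit without B4.

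The other called slopes were negative, for genes labelled upward in M14939#3. That label rests on p16 and p17 alone, and p40 was below p17 in each gene (for ENSPANG00000019091, 17.5 CPM at p17 and 1.94 CPM at p40). ENSPANG00000019091, upward in M14939#3, had a slope of -3.21 elsewhere (SE 0.49, edgeR adjusted p = 0.0179). It had 10.1, 5.06 and 3.02 CPM at p16, p18 and p25 of B4, 4.23, 0.146 and 0.207 CPM in B15 and 3.66, 0.0971 and 0.164 CPM in iPSC_160-2. ENSPANG00000017176, named because it was the other call, had a slope of -2.69 (SE 0.48, edgeR adjusted p = 0.0221). It had 0.0869, 5.79 and 0.397 CPM at p16, p17 and p40 of M14939#3. In both genes the highest library of each of the 4 lines was a 2-lane one. Both calls were lost without p43 of B15, p25 of iPSC_160-2 or p65 of iPSC_160-2, and with the replicate block, and that of ENSPANG00000017176 also without p84 of iPSC_160-2 (adjusted p from 1.28e-08 and 1.49e-05, by DESeq2, to 0.999 each, by edgeR, over 12 alternatives).

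**Figure D4:**
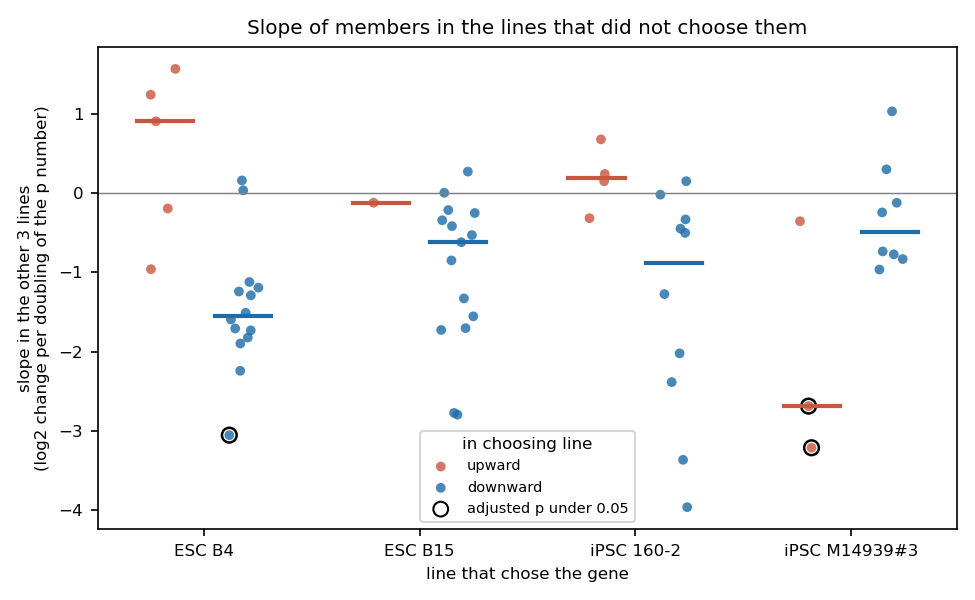
Slope with log2 of the p number, fitted to the 3 lines that did not choose the gene, for the 60 members of a single line (points), by choosing line and direction there, with medians as bars. Downward members lie mostly below 0 (40 of 47), and black rings mark the 3 slopes with adjusted p under 0.05.

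Members also differed between the lines that had not chosen them. The same fits compare lines at equal p number through 1 slope common to the lines. The p numbers of B4 (16 to 25) and iPSC_160-2 (25 to 84) meet only at 25. In these fits, 15 of the 60 members differed in at least 1 of 3 pairs of lines by edgeR's test. These were 6 of 19 for B4, 5 of 16 for B15, 2 of 14 for iPSC_160-2 and 2 of 11 for M14939#3, where 3.02%, 4.51%, 1.08% and 0.786% of all genes did. A gene can pass the filter through the line in which it is high, so the members' share is a description.

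ENSPANG00000015734, upward in B15, was higher in M14939#3 than in B4 by 2.98 on the log2 scale (SE 0.34, edgeR adjusted p = 3.05e-04). It had 12.8, 14.3 and 11.2 CPM in M14939#3 and 1.23, 1.16 and 2.14 CPM in B4, with no overlap. The call held in all 14 alternatives (edgeR and DESeq2 adjusted p at most 0.00299). M14939#3 was also higher than iPSC_160-2, which had 2.63, 1.99 and 1.87 CPM, by 2.35 (SE 0.42, edgeR adjusted p = 0.00855), a call lost without p25 of iPSC_160-2 and with the replicate block (largest adjusted p over 14 alternatives 0.585).

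ENSPANG00000008547, downward in M14939#3, had 93.6, 79.5 and 95.3 CPM in B4, 67.3, 39.8 and 108 CPM in B15 and 7.22, 34.3 and 26.6 CPM in iPSC_160-2. It was lower in iPSC_160-2 than in B4 by 3.68 on the log2 scale at equal p number (a log2 difference of -3.68, SE 0.54, edgeR adjusted p = 0.0164) and than in B15 (-2.73, SE 0.40, edgeR adjusted p = 0.0108). Every iPSC_160-2 library lay below every library of B4 and B15. Mean levels were 89.5 CPM in B4, 71.7 CPM in B15 and 22.7 CPM in iPSC_160-2, a smaller gap than the fitted differences. Both calls were lost with the line as the only term, without p43 of B15 and without p25 of iPSC_160-2, and the former also with the replicate block (edgeR and DESeq2 adjusted p up to 0.379 and 0.268 over 14 alternatives each). For ENSPANG00000011237, M14939#3 was below B15 by a log2 difference of -4.03 (SE 0.48, edgeR adjusted p = 0.00102) and below iPSC_160-2 by -4.55 (SE 0.57, edgeR adjusted p = 0.00165). The libraries overlapped. M14939#3 had 1.09 and 2.28 CPM at p16 and p17, above p43 of B15 (0.954 CPM) and p65 and p84 of iPSC_160-2 (0.485 and 0.362 CPM). Each call was lost when the p number was left out of the model or replaced by the library set. The call against iPSC_160-2 was also lost without p25 of iPSC_160-2 and with the replicate block. The edgeR and DESeq2 adjusted p reached 0.654 and 0.626 over 14 alternatives each.

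The range within a line was also taken for members that had met the rule only in other lines. Among those with at least 5 CPM in a library of the line at hand, the highest library was at least 8-fold above the lowest in 5 of 24 in B4, 12 of 29 in B15, 7 of 20 in iPSC_160-2 and 4 of 20 in M14939#3. Of all genes with at least 5 CPM that did not meet the rule in that line, 1.2%, 1.92%, 0.858% and 0.326% did so. The median ratio of the members was 2.14, 3.23, 4.32 and 1.91, against 1.52, 1.80, 1.40 and 1.52 for those genes. No test was run on this difference.

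The partner of each member was the member with the highest Pearson correlation to it. The highest Pearson correlation of a member with another member, on log2(CPM + 0.1) over the 12 libraries, had a median of 0.866 and was over 0.9 for 25 of the 69, with a range of 0.46 to 0.987. It is the maximum over all other members, while the median correlation between members was 0.183. Libraries of a line share their origin, so these are descriptions of 12 libraries. Among named members, ENSPANG00000036121 (0.543) and ENSPANG00000022684 (0.524) had the weakest partners. ENSPANG00000022415 (0.969 with ENSPANG00000016366) and ENSPANG00000011237 (0.95 with ENSPANG00000033458) had close ones, both within the group of 19.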

How the data were processed

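RNA-seq libraries of 4 baboon lines were made with the SMART-Seq v4 and Nextera XT kits, per the labels' protocols, which do not mark strand. The authors deposited raw read counts per Ensembl gene identifier (29475 identifiers, 18 columns, 1 per library and lane). The submitters' processing notes name featureCounts and edgeR. The sources used here give no aligner, build or annotation, so overlapping genes and near-identical copies can share reads. Columns were matched to samples by description and lanes summed to 12 libraries. The members, lists and tests were chosen with earlier results of these data known.

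CPM used each library's own total. Tests used edgeR 4.0.16 in R 4.3.3 (TMM, filterByExpr, robust quasi-likelihood fit, Benjamini-Hochberg over 17065 to 17943 genes, threshold 0.05). Each of 4 fits left out 1 line. Log2 values are edgeR's, and each SE is the unshrunken value over the square root of F. DESeq2 1.42.0, no filter, a replicate block, the library set, the line alone and each library left out were alternatives. Named genes are the 2 members of highest CPM per line and direction and the 2 chosen in most lines. Closest partners of named genes are also given, and some further members were named after their values were seen. Lists fixed by symbol (pluripotency, feeder, germ layer and imprinted genes) had no result, since no identifier had a symbol. In simulated counts, slopes of 2 on the log2 scale per doubling were recovered for 92%, 88%, 68% and 77% of changed genes in the fits without B4, B15, iPSC_160-2 and M14939#3 (17227, 17564, 17065 and 17943 genes), and slopes of 1 for 40%, 50%, 10% and 30%. False calls numbered 10, 9, 4 and 4 in the same order. Intervals (95%) and floors (3 counts) describe counting error alone: the libraries carry no molecular identifiers, so PCR copies are counted as separate molecules.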

Additional observations from a re-analysis of the deposited data

How the results depend on the processing

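The number of members was 71 with TMM-scaled totals, 28 with a high level of 10 CPM, 24 with a low level under 0.1 CPM, 55 to 67 when any 1 library was left out, and 21 within libraries of a line that share the number of lanes, a setting added after the data were seen. Over the 4 fits, 3 members had a called slope in the lines that did not choose them by edgeR. The count was 0 with the replicate block, 11 with the library set in place of the p number, 21 by DESeq2 and 12 without a filter on low counts, and 0 to 11 when 1 library was left out (0 without p25 and 1 without p65 of iPSC_160-2, 1 without p43 and 7 without p28 of B15, 11 without p16 and 10 without p40 of M14939#3). The 15 members that differed between lines became 6 with the replicate block, 7 with the line as the only term, 26 by DESeq2 and 8 to 15 when 1 library was left out (8 without p25 of iPSC_160-2, 9 without p16 or p17 of M14939#3). No called test of a member changed sign, and 2 of 28 kept their call under every alternative. Replicate numbers pair nothing in the labels. Deviations of same-numbered libraries of different lines correlated at -0.223 to 0.441, over 0.1 in 11 of 18 pairs, and 8 of 12 libraries correlated best with their own number. Same-numbered libraries hold the same rank of p number in every line, and the last was always run on 1 lane. A pairing therefore cannot be told apart from p number or lanes, and the replicate block leaves little of a slope to test. Depth limits the low levels, since 0.3 CPM is 3.61 counts in p18 of B4. The causes of these shifts were not tested.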
